A study of Bubalus bubalis with 6 samples.

Results

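The genes described here build caveolae and repair the plasma membrane. They are the caveolins CAV1, CAV2 and CAV3, the cavins PTRF (now CAVIN1) and MURC (now CAVIN4), the caveola neck protein EHD2, and the ferlins DYSF and MYOF. They were chosen by gene symbol, with the older and newer cavin names both accepted, and all 8 were found among the 24616 genes of the gene table. Buffalo (Bubalus bubalis) muscle stem cells (MuSCs) were profiled by poly(A) RNA-seq in a proliferation group (GM, n = 3) and a differentiation group (DM, n = 3). The primary cells came from fetal longissimus muscle. GM cells grew in DMEM with fetal bovine serum. DM cells were moved near confluence to DMEM with horse serum at a lower percentage, for up to 4 days in the culture methods. The study's account of the cells places the differentiation phase on the fifth day. No genetic change is given for either group. The only added drugs given are penicillin and streptomycin, named for the growth medium. The labels do not say whether each sample was a culture of its own, so the p-values measure the spread between these samples, which may be technical.

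Caveolae are small flask-shaped pits of the plasma membrane. Caveolins insert into the inner leaflet, cavins coat the pit from the cytoplasm, and EHD2 forms a ring at its neck that holds it at the surface. Muscle fibres are rich in caveolae, which flatten when the membrane is stretched, and CAV3 and MURC are the caveolin and cavin most tied to muscle. The ferlins are calcium-binding membrane proteins: DYSF takes part in the resealing of torn muscle membrane and MYOF in myoblast fusion, and loss of DYSF or CAV3 function causes muscle disease.

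The muscle caveolin CAV3, the muscle cavin MURC and the ferlin DYSF rose 2.16-fold, 10.2-fold and 2.95-fold, while CAV1 and CAV2 fell and MYOF did not pass the test. PTRF and EHD2, which had the highest levels per length, rose by 1.32-fold and 1.63-fold. A gene was called when its absolute log2 fold change (DM over GM) was above 1 and its Benjamini-Hochberg adjusted p in edgeR's quasi-likelihood test was under 0.05. All 8 genes passed the count minimum (10, summed over the samples) and were tested. Of these 8, 3 were called and all 3 were higher in DM, beside 25.3% of the 15576 tested genes called, 15.0% higher and 10.3% lower. Under the adjusted p alone, 7 of 8 passed, 5 higher and 2 lower, where 63.0% of tested genes passed, 31.6% higher and 31.4% lower. For 7 of the 8 no DM sample lay within the range of the GM samples, or the reverse, against 68.8% of tested genes without overlap, so this count was near the background. The median log2 fold change of the 8 was 0.55, and that of all tested genes 0.03.

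The samples held 35615864 to 40305237 counts on genes, and the 8 genes had 68 to 30551 counts in a sample. Together they took 0.166% of counts in GM and 0.200% in DM. DM replicate 3 stood apart: the chi-square per degree of freedom between its counts and those of DM replicates 1 and 2 was 40.5 to 41.4, against 11.7 between those 2 and 6.22 to 10.6 between GM samples. Values without it are given for the members highest in it and where a call turned on it. The myotube markers listed (10 of 12 tested) were all called higher in DM, and their summed level ran from 470.4 to 942.6 CPM (counts per 1000000 counts, TMM-normalized) in GM and from 6153 to 8738 CPM in DM, highest in DM replicate 3. The satellite cell markers PAX7 and MYF5 were detected, with PAX7 at 18.5 ± 0.174 CPM in GM and 9.78 ± 3.25 CPM in DM (SD, n = 3). MYF5 was called lower in DM (log2 fold change -2.70, adjusted p = 1.02e-08, edgeR).

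**Figure D1:**
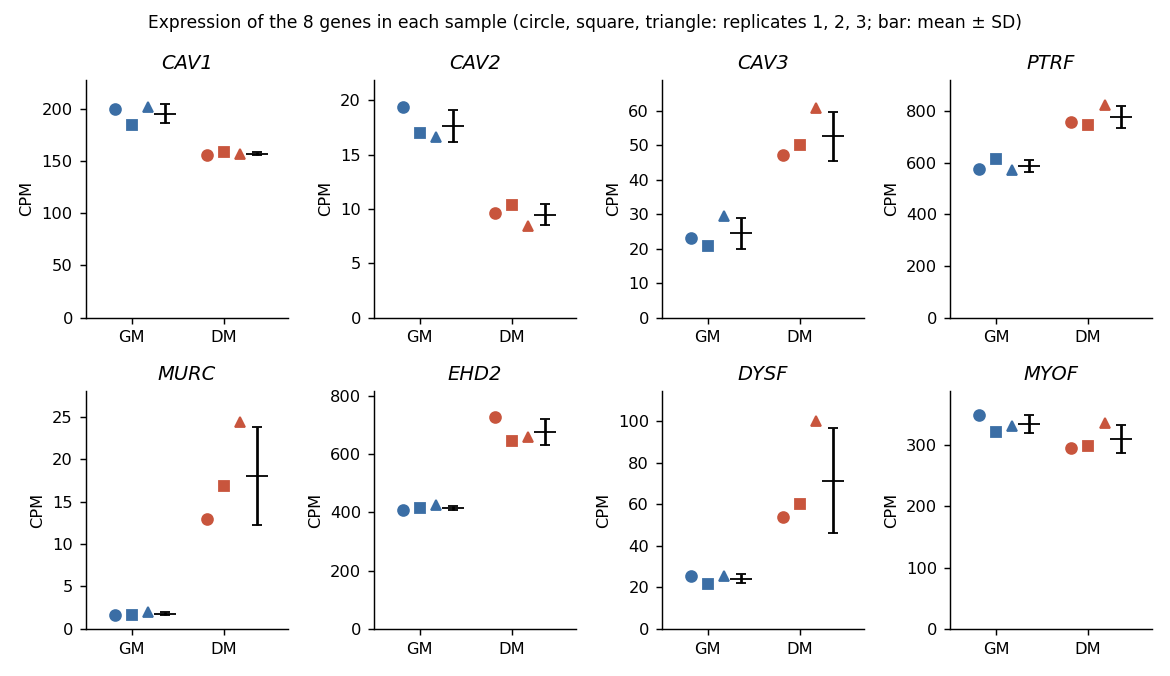
Level of each of the 8 genes in CPM (TMM-normalized, each axis from 0) in the 3 GM samples (blue) and the 3 DM samples (red), with circle, square and triangle for replicates 1, 2 and 3 and the black bar for the mean ± SD. The groups are apart in every panel except MYOF, and the triangle of DM replicate 3 is the highest point for CAV3, PTRF, MURC and DYSF.

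Among the caveolins, CAV3 rose while CAV1 and CAV2 fell. CAV1 (ENSBTAG00000017869, chromosome 4, 52173110 to 52208687, minus strand), the main caveolin of most cell types, measured 200.3, 184.8 and 201.7 CPM in GM and 155.6, 158.4 and 157.4 CPM in DM. Every DM sample lay below every GM sample, and the DM samples hardly differed from each other, with a coefficient of variation of 0.913%. The log2 fold change was -0.32 (SE 0.060, 95% interval -0.45 to -0.18, adjusted p = 0.000871 by edgeR's quasi-likelihood test). The positions are those in the deposited table, which lists cattle Ensembl genes and names no build.

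CAV2 (ENSBTAG00000045584, chromosome 4, 52230674 to 52235915, minus strand), which forms mixed complexes with CAV1, had 19.4, 17.0 and 16.7 CPM in GM and 9.65, 10.3 and 8.41 CPM in DM. The groups were apart, with GM 1.87-fold above DM. Its log2 fold change of -0.90 (SE 0.11, 95% interval -1.15 to -0.65, adjusted p = 4.81e-05, edgeR) stayed inside the limit for a call. CAV1 and CAV2 lie on the same strand with 21986 bases and no listed gene between them. They are also adjacent coding genes in the buffalo RefSeq annotation (assembly NDDB_SH_1), in which all 8 genes were matched by symbol or synonym.

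CAV3 (ENSBTAG00000022699, chromosome 22, 17832937 to 17846997, minus strand), the muscle caveolin, had 23.2, 20.8 and 29.4 CPM in GM and 47.2, 50.2 and 60.8 CPM in DM. The highest GM sample, replicate 3, stayed below the lowest DM sample, replicate 1. The mean went from 24.5 ± 4.46 to 52.7 ± 7.15 CPM (SD, n = 3), a log2 fold change of 1.11 (SE 0.13, 95% interval 0.81 to 1.40, adjusted p = 3.15e-05, edgeR). The interval reaches below 1, and a test against a fold change of 2 did not pass (adjusted p = 0.354, edgeR glmTreat). Without DM replicate 3 the log2 fold change was 1.002, and without GM replicate 2 it was 1.004.

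The balance of the 3 caveolins moved with these changes. RPKM (reads scaled by the listed gene length and by the sample's total count) allows genes to be set beside each other. On that scale CAV3 made up 17.1, 17.0 and 21.5% of summed caveolin RPKM in GM and 38.0, 38.8 and 44.6% in DM. The DM shares were all above the GM shares, with means of 18.5 ± 2.56% and 40.5 ± 3.65% (SD, n = 3), and 38.4% in DM without replicate 3. The share of CAV1 went from 56.1 ± 0.706% to 45.7 ± 1.86% and that of CAV2 from 25.4 ± 2.13% to 13.8 ± 1.87%. The CAV3 difference had a two-sided exact permutation p = 0.1, the smallest that 3 against 3 samples allow. The size of each share rests on the listed lengths of 2453 bases for CAV1, 489 for CAV2 and 926 for CAV3, and that of CAV2 is short.

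**Figure D2:**
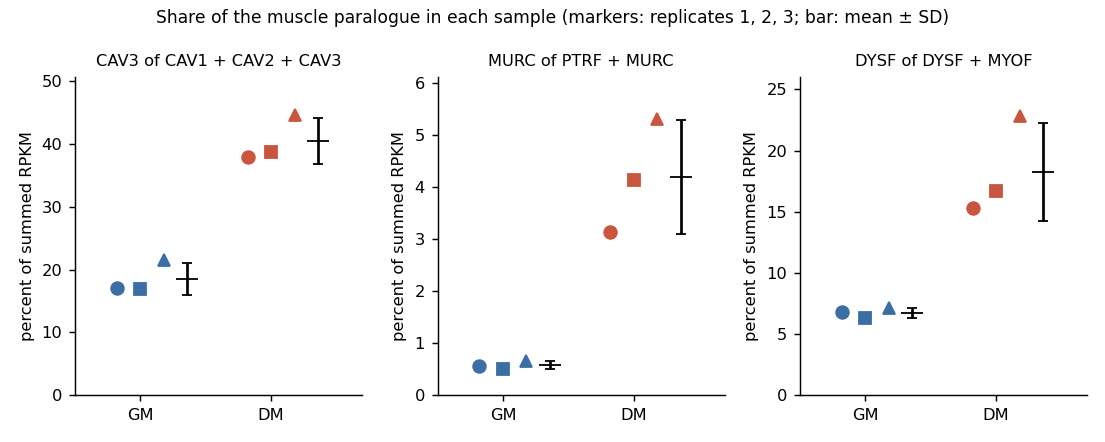
Share of CAV3 in the summed RPKM of the caveolins, of MURC in that of PTRF and MURC, and of DYSF in that of DYSF and MYOF, in percent, for each GM (blue) and DM (red) sample, with the mean ± SD as a black bar. In each panel all DM samples lie above all GM samples and DM replicate 3 is highest.

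The cavins PTRF and MURC both rose, MURC by far more, and yet PTRF kept most of the summed level of the 2. PTRF (ENSBTAG00000039684, chromosome 19, 43148013 to 43162165, minus strand), the coat protein that caveola formation needs, had 575.5, 613.7 and 572.8 CPM in GM and 760.6, 745.9 and 825.7 CPM in DM. All DM samples were above all GM samples. The log2 fold change was 0.40 (SE 0.064, 95% interval 0.26 to 0.55, adjusted p = 0.00025, edgeR), and 0.37 without DM replicate 3.

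MURC (ENSBTAG00000021992, chromosome 8, 91916165 to 91928339, plus strand), the muscle cavin, had 70, 68 and 75 counts in GM and 436, 617 and 900 counts in DM. In CPM these were 1.69, 1.63 and 1.98 in GM and 12.9, 16.9 and 24.3 in DM. The GM samples were all low and close together, and the DM samples were spread, with a coefficient of variation of 32.2%. The log2 fold change was 3.35 (SE 0.23, adjusted p = 5.15e-07, edgeR), or 10.2-fold with a 95% interval of 7.15-fold to 14.6-fold. DM replicate 3 was 1.63 times the mean of the other DM samples, and without it the log2 fold change was 3.08. Its GM level of 0.635 ± 0.0666 RPKM (SD, n = 3) was the lowest of the 8 genes. MURC took 0.557, 0.506 and 0.655% of the summed RPKM of PTRF and MURC in GM and 3.14, 4.13 and 5.32% in DM. That is 0.572 ± 0.0757% against 4.20 ± 1.09% (SD, n = 3, two-sided exact permutation p = 0.1), and 3.64% in DM without replicate 3. The size of these shares rests on the listed lengths of 5492 bases for PTRF and 2878 for MURC.

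Of the remaining cavins, PRKCDBP (CAVIN3) rose from 187 ± 15.0 to 228 ± 6.15 CPM (log2 fold change 0.28, adjusted p = 0.00442, edgeR). SDPR (CAVIN2) was at a low level, with 1.26 ± 0.581 and 0.638 ± 0.207 CPM, and its log2 fold change of -0.99 did not pass the test (adjusted p = 0.0556, edgeR). It was called with library size alone (-1.08, adjusted p = 0.0385) and without GM replicate 3 (-1.19, adjusted p = 0.0439, edgeR), and stood at -0.54 without GM replicate 1.

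The neck protein EHD2 (ENSBTAG00000021191, chromosome 18, 55071102 to 55087454, plus strand), an ATPase, had 409.0, 414.8 and 424.5 CPM in GM and 726.9, 644.2 and 660.7 CPM in DM. The GM samples lay within a coefficient of variation of 1.89% and far below the DM samples. Its log2 fold change was 0.70 (SE 0.064, 95% interval 0.56 to 0.85, adjusted p = 3.95e-06, edgeR). Unlike CAV3, PTRF, MURC and DYSF, EHD2 was highest in DM replicate 1. Its relatives EHD1 and EHD3 rose by 0.55 and 0.49 on the log2 scale (adjusted p = 5.62e-05 and 0.0229, edgeR). EHD4 fell from 102.7 ± 5.50 to 38.3 ± 2.74 CPM (log2 fold change -1.42, adjusted p = 7.82e-08, edgeR) and was called. These EHD proteins act in endocytic recycling.

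Of the ferlins, DYSF rose and MYOF did not pass the test. DYSF (ENSBTAG00000013290, chromosome 11, 12894979 to 13123270, minus strand) had 25.6, 21.8 and 25.5 CPM in GM and 53.8, 60.4 and 100.3 CPM in DM. All DM samples lay above the GM samples, and DM replicate 3 was 1.76 times the mean of DM replicates 1 and 2. The log2 fold change was 1.56 (SE 0.20, adjusted p = 5.09e-05, edgeR), or 2.95-fold with a 95% interval of 2.17-fold to 3.997-fold. Without DM replicate 3 it was 1.24 and still called.

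MYOF (ENSBTAG00000016918, chromosome 26, 14667438 to 14848281, minus strand) had 349.9, 322.3 and 330.9 CPM in GM and 295.4, 298.0 and 336.1 CPM in DM. The groups overlapped because DM replicate 3 lay among the GM samples. The log2 fold change was -0.11 (SE 0.069, adjusted p = 0.188, edgeR), with a 95% interval of -0.26 to 0.04, so a change of DM over GM between 0.834-fold and 1.03-fold is inside it. Without DM replicate 3 the log2 fold change was -0.16 and passed (adjusted p = 0.0330, edgeR).

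DYSF thus made up 6.75, 6.28 and 7.09% of the summed RPKM of DYSF and MYOF in GM and 15.3, 16.7 and 22.8% in DM. The means were 6.71 ± 0.405% and 18.3 ± 4.002% (SD, n = 3, two-sided exact permutation p = 0.1), and 16.0% in DM without replicate 3. MYOF remained the more abundant ferlin per length in every sample. The 3 shares (of CAV3, MURC and DYSF) were tested as 1 family, and their adjusted p was 0.1 each.

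**Figure D3:**
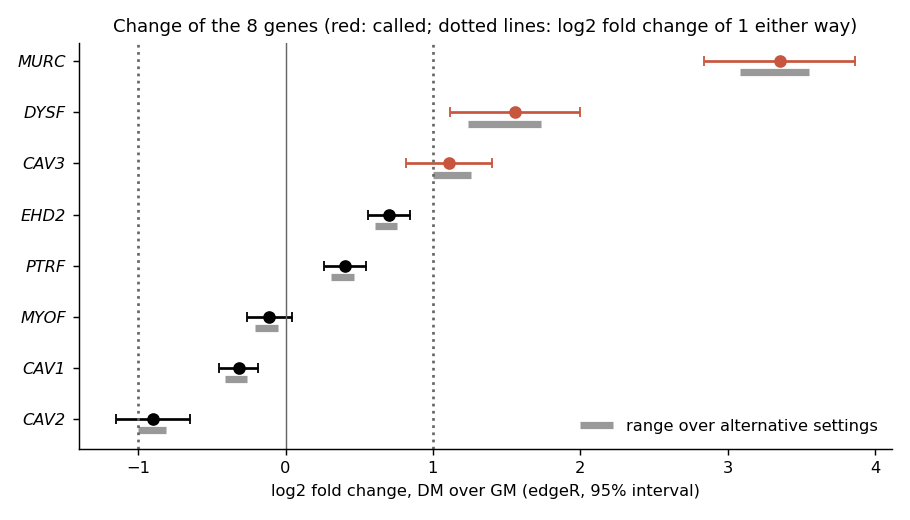
Log2 fold change (DM over GM) of the 8 genes with its 95% interval from edgeR's quasi-likelihood fit, in red for the called genes, and in grey the range of the estimate over the alternative settings. MURC, DYSF and CAV3 lie above 1, CAV2 lies near -1 without a call, and the interval of MYOF crosses 0.

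The 3 called genes ranked the samples much as the myotube markers did. All of these genes were called higher in DM, so only the order within each group adds to that. Within GM it rests on small differences, for MURC 70, 68 and 75 counts. CAPN3, TRIM72 and FER1L6, which are outside the 8 genes and were called higher, had the same order as the summed markers. The share of all tested genes with this order was not computed. The summed myotube markers ran in the order GM replicate 2, 1, 3, then DM replicate 1, 2, 3, at 470.4, 900.4, 942.6, 6153, 6250 and 8738 CPM. CAV3 and MURC had the same order of the 6 samples, and DYSF differed from it only by 25.6 and 25.5 CPM in GM replicates 1 and 3. None of the 8 genes is in that marker list. In these bulk samples, more cells of a type and more RNA per cell cannot be told apart, and the part of myotube content in these differences was not tested.

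Other cell types rich in caveolae were checked by their markers. Of the 9 endothelial markers 8 were tested, and the list summed to 5.99 to 6.13 CPM in GM and 7.08 to 9.43 CPM in DM, with 3 called lower and 1 higher. CDH5 (0.534 to 0.110 CPM), VWF (1.19 to 0.443 CPM) and TIE1 (0.205 to 0.0361 CPM) fell and TEK rose (1.47 to 4.20 CPM), while PECAM1, at 0.0321 and 0.0918 CPM, did not pass and EMCN had no more than 3 counts in any sample. The groups of CDH5 overlapped, with 6 to 32 counts in GM and 1 to 8 in DM. TIE1 had 0 to 3 counts in DM. Of the 8 adipocyte markers 6 were tested, and they summed to 6.91 to 8.34 CPM in GM and 7.24 to 8.76 CPM in DM, with 2 called higher and 1 lower. PPARG fell from 4.33 to 0.319 CPM and CIDEC rose from 2.67 to 6.64 CPM. FABP4 was called higher, from at most 1 count a sample in GM to 13 to 16 in DM. ADIPOQ, at 0.124 and 0.200 CPM, did not pass, and LEP had no more than 3 counts in any sample. Both sums were under 10 CPM in every sample, and their genes moved in opposite directions. The smooth muscle and pericyte list (8 of 8 tested, 1 called higher and 1 lower) summed to 1899 to 1962 CPM in GM and 1147 to 1317 CPM in DM. Most of that sum was ACTG2 (1419 to 852 CPM) and SMTN (318 to 152 CPM, called lower), while KCNJ8 was called higher (0.277 to 13.8 CPM) and MYH11, which overlaps NDE1, had 3.32 and 5.69 CPM. Of 8 leukocyte markers 5 were tested, summing to 5.59 to 7.26 CPM in GM and 2.78 to 4.12 CPM in DM, with LYZ at 0 in every sample.

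Fibroblast genes moved with the groups. Of 9 such markers 7 were tested and 6 were called higher in DM. Their sum went from 24830 to 25050 CPM in GM to 77010 to 96950 CPM in DM, lowest of the DM samples in replicate 3. Most of that sum was COL1A1 (15290 to 44330 CPM) and COL3A1 (8299 to 39250 CPM). PDGFRA rose from 575 to 859 CPM (log2 fold change 0.58, adjusted p = 0.00252, edgeR) without being called. Among the 6 calls, PI16 was near the floor, with 1 to 2 counts a sample in GM and 8 to 17 in DM. TCF21, with 0, 1 and 7 counts in GM and 0 in each DM sample, was not tested. Proliferation markers fell, 8 of 8 called lower, from 1937 to 1956 CPM in GM to 429.7 to 511.9 CPM in DM. The myoblast and satellite cell list (7 of 7 tested, 2 called lower) summed to 3102 to 3337 CPM in GM and 2294 to 2793 CPM in DM. DES made up most of that sum (2274 to 2051 CPM). Its groups overlapped and it did not pass (adjusted p = 0.217, edgeR). By adjusted p alone 5 of the list were lower and 1 higher. MYF5 and ITGA7 were the calls (log2 fold change -2.70 and -1.96). MYOD1 rose from 32.5 to 60.5 CPM (log2 fold change 0.90, adjusted p = 0.00202, edgeR) without being called. The part of these shifts in the changes of CAV1, CAV2, PTRF and EHD2, which fibroblasts also express, was not tested.

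Per length, the 8 genes spanned a wide range. In GM the order by mean RPKM was EHD2 (143 ± 2.58), PTRF (111 ± 4.10), CAV1 (82.5 ± 4.10), MYOF (49.8 ± 2.22), CAV2 (37.4 ± 3.21), CAV3 (27.3 ± 4.99), DYSF (3.58 ± 0.323) and MURC, and no neighbours in it overlapped (SD, n = 3). In DM the order was EHD2 (218 ± 10.2), PTRF (137 ± 7.76), CAV1 (61.9 ± 1.67), CAV3 (55.1 ± 7.81), MYOF (43.1 ± 3.39), CAV2 (18.7 ± 2.05), DYSF (9.87 ± 3.51) and MURC (6.07 ± 1.99). On this scale CAV3 moved from below MYOF and CAV2 to above both. Both crossings rest on the listed lengths, 489 bases for CAV2, 926 for CAV3 and 6949 for MYOF. In CPM CAV3 was above CAV2 in both groups, with means of 24.5 and 17.7 in GM and 52.7 and 9.46 in DM. MYOF was above CAV3 in both groups in CPM, with means of 334 in GM and 310 in DM. The samples of CAV1 and CAV3 overlapped in DM, as did those of DYSF and MURC. EHD2 ranked 468th of the 15576 tested genes by mean RPKM over all samples, and MURC 10196th. The place of PTRF below EHD2 rests on its listed gene length of 5492 bases. Its mRNA of 3776 bases had 99.75 to 99.86% of the gene's counts, and EHD2 is listed at 3003 bases. In CPM PTRF lay above EHD2, with means of 587 and 416 in GM and 777 and 677 in DM.

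**Figure D4:**
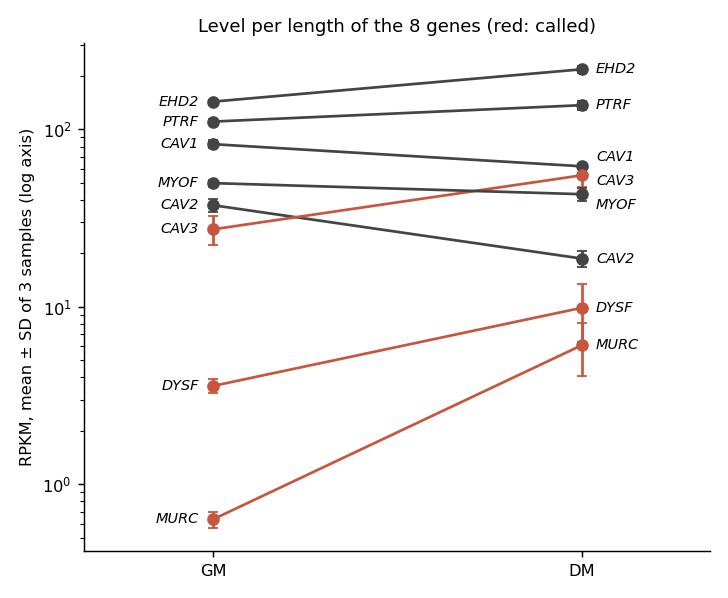
Mean RPKM ± SD of the 3 GM and the 3 DM samples for each of the 8 genes, on a log axis, with called genes in red. The line of CAV3 crosses those of CAV2 and MYOF, and both crossings rest on the listed lengths (489 bases for CAV2, 926 for CAV3, 6949 for MYOF). EHD2 and PTRF are the highest in both groups.

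Wider lists of caveola and membrane repair genes moved both ways. Without the 8 genes, 48 of 55 entries were tested. Of these, 10 were called, 8 higher and 2 lower, and 38 had an adjusted p under 0.05, 26 higher and 12 lower. Their share of calls, 20.8%, was below the 25.3% of all tested genes. Their share by adjusted p alone, 79.2%, was above the 63.0% of all tested genes, with 54.2% higher (31.6% of all) and 12 of 48 lower (31.4% of all). Their median log2 fold change was 0.34. Not found by symbol were FER1L4, ANXA8, AHNAK2, VAMP7, CHMP3 and VPS4A, and OTOF had too few counts to be tested.

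The repair vesicle, scramblase and protease list held the most calls, 4 of 13 tested, all higher, with 10 of its 13 rising and 1 falling under the adjusted p alone. That is 30.8% called, near the 25.3% of all tested genes, and 76.9% higher by adjusted p, where 31.6% of all were. TRIM72 (MG53), a muscle protein that brings vesicles to membrane tears, had 15.4, 13.9 and 18.6 CPM in GM and 55.4, 58.1 and 64.6 CPM in DM. Its samples did not overlap, and the log2 fold change was 1.90 (SE 0.11, adjusted p = 1.45e-07, edgeR). CAPN3, the muscle calpain, had 12, 6 and 22 counts in GM and 414, 466 and 730 in DM, a log2 fold change of 5.47 (SE 0.35, adjusted p = 3.09e-07, edgeR). LGALS3, a galectin that binds damaged membranes, rose from 31.1 ± 1.12 to 208 ± 11.2 CPM (log2 fold change 2.74). SMPD1, the acid sphingomyelinase, rose from 37.5 ± 1.31 to 80.7 ± 4.09 CPM (log2 fold change 1.11). ANO5, a member of the anoctamin family linked to muscle disease, rose from 6.30 ± 0.421 to 10.9 ± 2.005 CPM (log2 fold change 0.79, adjusted p = 0.00095, edgeR) without being called.

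The annexins, calcium-dependent membrane binders, split. Of 11 tested annexin and S100 entries, 4 rose and 5 fell by adjusted p (36.4% and 45.5%, beside 31.6% and 31.4% of all tested genes), and ANXA4 was called higher (48.5 ± 1.31 to 123 ± 6.81 CPM, log2 fold change 1.34) and ANXA3 lower (43.0 ± 3.11 to 13.1 ± 3.22 CPM, log2 fold change -1.72). ANXA2 fell from 1946 ± 49.0 to 1189 ± 11.4 CPM (log2 fold change -0.71, adjusted p = 1.30e-06, edgeR). ANXA6 fell from 1339 ± 22.3 to 883.5 ± 12.9 CPM (log2 fold change -0.60). ANXA1 had 387 ± 3.395 CPM in GM and 383 ± 49.98 CPM in DM and did not pass (adjusted p = 0.892, edgeR). The partners of ANXA2 both rose, S100A10 by 0.52 and AHNAK by 0.71 on the log2 scale. S100A11, a partner of ANXA1, fell from 522 ± 23.7 to 274 ± 6.01 CPM (log2 fold change -0.93, and -1.03 and called with library size alone).

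Of the 10 neck and membrane bending genes tested, 9 passed by adjusted p, 6 higher and 3 lower (60.0% and 30.0%, beside 31.6% and 31.4% of all tested genes). PACSIN3, the muscle member of a family that bends membranes, rose from 18.7 ± 0.631 to 28.0 ± 3.69 CPM (log2 fold change 0.58, adjusted p = 0.00043, edgeR). ROR1, a receptor that binds cavin and caveolin, was called at a log2 fold change of 1.02. The call was lost with library size alone (0.92), without GM replicate 2 (0.98), DM replicate 1 (0.98) or DM replicate 2 (0.99), and against a fold change of 2 (adjusted p = 0.700 by edgeR glmTreat). Its reads cannot be told apart from those of an overlapping U5 entry if the counting ignored strand. The ferlin FER1L6 was called at 1.42 ± 0.419 and 3.99 ± 2.06 CPM (log2 fold change 1.495), with DM replicate 3 the highest at 6.35 CPM. Without that sample its log2 fold change was 0.997 and it was not called, nor did it pass against a fold change of 2 (adjusted p = 0.166, edgeR glmTreat). In the ESCRT list, which closes small membrane wounds, 7 of 10 tested genes passed by adjusted p, 4 higher and 3 lower, and CHMP4C was the 1 call (1.68 ± 0.0904 to 4.82 ± 0.456 CPM, log2 fold change 1.51), in a gene overlapped by a U4 entry. Over all tested genes 63.0% passed by adjusted p, 31.6% higher and 31.4% lower, and 25.3% were called, so the ESCRT counts were near or below the background.

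**Figure D5:**
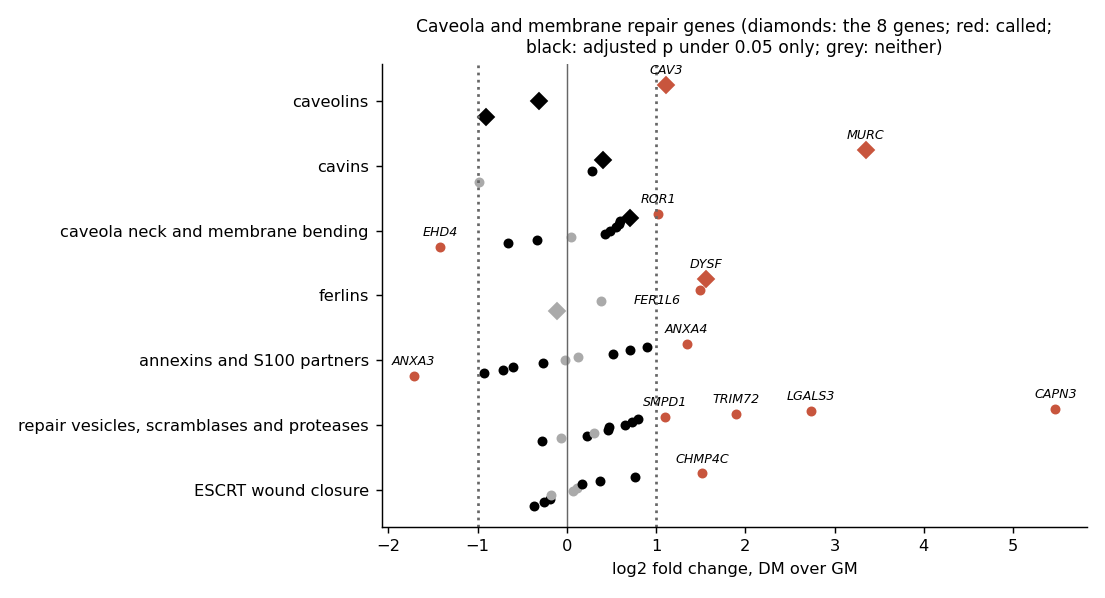
Log2 fold change (DM over GM) of the tested caveola and membrane repair genes in 7 groups, 1 point a gene, with diamonds for the 8 genes, red for called genes, black for an adjusted p under 0.05 alone and grey for neither. CAPN3 and MURC lie farthest right, and EHD4 and ANXA3 are the 2 called on the left.

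At the transcript level, 9 mRNAs of the 8 genes were tested and 3 were called, those of CAV3, MURC and DYSF, beside 25.6% of the 16352 tested mRNAs. For 7 genes the single listed mRNA had exactly the counts of the gene and adds no new measurement. PTRF had 2. ENSBTAT00000055460 (2322 bases) went from 122.7 ± 6.84 to 160.3 ± 4.56 CPM and ENSBTAT00000061251 (3776 bases) from 530.1 ± 20.3 to 692.6 ± 37.3 CPM, both with a log2 fold change of 0.39 (adjusted p = 0.000311 and 0.000344, edgeR). The counts of the 2 summed to 122.1 to 123.6% of the gene's, so reads were counted for both and the transcripts are not separate measurements.

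The genes whose pattern was most like each member were found among 8981 tested genes of at least 10 CPM on average, by Pearson's r of log2 CPM over the 6 samples. CAV3 was closest to ANO10 and AIF1L (r = 0.998 each) and to STAC3 (r = 0.995), a protein of muscle excitation-contraction coupling. MURC was closest to an unnamed gene (ENSBTAG00000038025), COL18A1 and AKNA. DYSF was closest to TRIM24, KIAA0408 and CYB5A, and EHD2 to CHMP2A, ABHD14B and FBLN1. The nearest genes were ZCCHC8, C2CD3 and MED24 for CAV1, MIPEP, RBBP5 and CEP162 for CAV2, and HOMER3, SH3D21 and MCOLN1 for PTRF. With 2 groups of 3, a gene that differs strongly between the groups correlates with many others: 203 genes had an r above 0.99 with MURC and 225 with EHD2, but 17 with CAV3 and 22 with DYSF. MYOF had none, and its closest gene was CEMIP (r = 0.981).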

How the data were processed

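Poly(A) RNA-seq of 6 buffalo MuSC samples (3 GM, 3 DM, grouped by the labels) was analysed from the deposited gene and mRNA tables. The authors deposited raw counts per feature. The counter is not given in the sources used here. The study's supplementary methods name HISAT2, a buffalo reference genome and its RefSeq annotation. The submitters' processing notes name Bowtie 0.12.2, mm8 and mm9, and the tables list cattle Ensembl identifiers without a build. Which of these made the counts was not settled. RPKM values were computed by the authors from the counts, the listed lengths and the sample totals. The deposited lists of differential features hold only features past the authors' thresholds, with fold changes and p-values, and were not used, nor was the ncRNA table.

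Counts were tested in R 4.3.3 with edgeR 4.0.16 (TMM, glmQLFit, glmQLFTest) on features whose counts summed to 10 or more. Adjusted p is Benjamini-Hochberg over all tested features, and the standard error is the log2 fold change over the square root of F. CPM is TMM-normalized. Shares were compared by exact permutation (scipy 1.17.1, Python 3.11.15). DESeq2 1.42.0 and the other alternatives are given at the end. On simulated data with 200 genes changed 4-fold among 15576, 196 were recovered and 6 unchanged genes were called. For mRNAs 199 were recovered and 8 unchanged ones were called among 16352. GM and DM share replicate numbers, but the deviations of same-numbered samples correlated at -0.0218 to -0.00756, so the numbers were not taken as pairs.

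Named genes were all members, up to 4 called genes per sub-list by size of change, a set of well-known family members whatever they did, and the 3 most similar genes per member. S100A10, S100A11 and AHNAK were added with their values known. The members and lists were chosen with earlier results of these data known.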

Additional observations from a re-analysis of the deposited data

How the results depend on the processing

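CAV3, MURC and DYSF stayed called with DESeq2, its size factors, library size alone, other count filters, protein-coding genes alone and any 1 sample left out. The count of members with an adjusted p under 0.05 was 7 to 8 in those fits, that of other pathway genes called 9 to 11, and that of member transcripts called 2 to 3. CAV3's mRNA was not called without GM replicate 2 (log2 fold change 0.99), without DM replicate 3 (0.98) or with library size alone (0.94), where that of CAV2 was called lower instead (-1.07). With a replicate block, 3 members were called and 7 passed by adjusted p. Under the test against a fold change of 2, 2 members passed, MURC and DYSF, and all genes called fell to 2293 from 3936. The RPKM rule keeps genes of at least 1 RPKM in over 50% of samples, which is how the study defined reliably expressed genes. Under it all genes called were 2197. MURC, which reached 1 RPKM only in the DM samples, was not tested, nor were CAPN3 and FER1L6. Among other pathway genes, the test against a fold change of 2 also lost SMPD1 (adjusted p = 0.127). With library size alone all 8 members passed by adjusted p (MYOF at 0.0244), and the median log2 fold change of all genes was -0.07. On raw counts the CAV3 difference in share was 13.7 percentage points in place of 21.9, and that of MURC 1.95 in place of 3.63. From summed mRNA RPKM the MURC difference was 1.86. Raw counts take no account of length. The PTRF mRNAs are listed at 3776 and 2322 bases, against 5492 for the gene, and the reads they share count for both. The p of each share within replicate number was 0.25, the smallest possible. MURC in GM rests on 68 to 75 counts a sample, which limits its precision.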
